A study of Mus musculus with 22 samples.

Results

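The genes described here are 10 regulators of mitochondrial biogenesis, chosen by symbol as the rows of the deposited gene counts named Ppargc1a, Ppargc1b, Esrra, Nrf1, Gabpa, Tfam, Tfb1m, Tfb2m, Polrmt and Polg. Each symbol matched 1 row, giving 10 of the 34489 genes counted, and the rule itself uses no measured value. They are described across all 22 libraries of mouse pluripotent cells and their cultures.

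Mitochondria are built from proteins of the nuclear and the mitochondrial genome, whose transcription has to be matched in cells that make more of them. The coactivators PGC-1α (Ppargc1a) and PGC-1β (Ppargc1b) bind transcription factors such as the nuclear receptor ERRα (Esrra), NRF1 and the ETS-family factor GABPα (Gabpa), whose targets include respiratory chain genes and the factors that act on mitochondrial DNA. In the mitochondrion, the polymerase POLRMT starts transcription with the packaging protein TFAM and the factor TFB2M, TFB1M modifies ribosomal RNA, and polymerase γ (Polg) copies the genome. AMP-activated kinase (AMPK), the energy sensor that the study's compounds activate, is known for raising PGC-1α activity in muscle, and naive pluripotent cells are known for relying more on respiration than primed cells do.

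RNA was sequenced from primed epiblast stem cells (mEpiSCs) that were driven toward the naive state with AMPK activators, and no condition was sequenced more than once among the 22 libraries. The primed group held 1 library of Oct4GIP mEpiSCs, a female line carrying a GFP and puromycin resistance cassette under the Oct4 promoter, and 1 of 129/MSM mEpiSCs, a male line from a cross of the 129X1/SvJ and MSM/Ms strains. Both were kept in FGF2 and Activin A, Oct4GIP on fibronectin and 129/MSM on mouse embryonic fibroblast feeders. The naive group was 1 library of Rex1-GFP embryonic stem cells (mESCs) in 2iL, a medium with inhibitors of MEK and GSK3 and the cytokine LIF. Whole Oct4GIP cultures on feeders were sampled at day 8 (d8, 4 libraries) and day 16 (d16, 4 libraries), in Basal medium alone or with 2iL, AICAR or AICAR+LIF. Reverted cells had 16 days with an activator and then grew in 2iL, for 2 or 3 passages (d16+2p and d16+3p, 4 Oct4GIP libraries with AICAR or AICAR+LIF) or 10 passages (d16+10p, 7 libraries). The d16+10p group held 5 Oct4GIP libraries (AICAR or A769662, each with and without LIF, and metformin with LIF) and 2 libraries of 129/MSM (AICAR and AICAR+LIF). AICAR was given at 0.5 mM for 6 days and at 1 mM from then on, A769662 at 50 μM and metformin at 1 mM. Libraries of a group stand in for its samples, so p-values between groups measure a spread that mixes treatments, passages and lines. The AICAR test used the d8 and d16 cultures alone, and its spread mixes AICAR with AICAR+LIF and Basal with 2iL. Tests of day, LIF and line set matched libraries against each other, with 1 library on each side of a match.

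The libraries held between 438771 and 5290163 counted reads, and 20 of the 22 held at least 1689495. The exceptions were AICAR+LIF at d8 with 438771 reads and AICAR at d8 with 956357. Levels are given as CPM, read counts scaled to the library's total by TMM, and 3 counts, treated as the floor, came to between 0.566 and 5.93 CPM. The labelled states carried their markers: the summed level of 5 naive markers lay between 2003 and 3574 CPM in the 11 reverted libraries and was 2971 CPM in the naive one, against 1.89 to 24.0 CPM in the primed libraries and whole cultures. The 4 pluripotent markers (Pou5f1, Nanog, Sox2 and Sall4) summed to at most 316 CPM in the whole cultures and to at least 959 CPM elsewhere. Against primed cells 3 of them were called lower in the cultures. Sox2 was called higher, with a mean of 174 CPM in the cultures against 55.6 CPM in primed cells. The sum of 10 feeder fibroblast markers lay between 2690 and 49770 CPM in the whole cultures. Elsewhere it was at most 547 CPM, the highest in primed 129/MSM cells, which grew on feeders. The 4 primed markers (among them Fgf5, Otx2 and Dnmt3b) summed to 368 and 1636 CPM in primed cells, to 429 to 594 CPM at d16+2p and d16+3p and to at most 226 CPM in all others. At d16+2p and d16+3p the sum was mostly Dnmt3b, with a mean of 507 CPM against 552 CPM in primed cells. Otx2 averaged 11.1 CPM there against 241 CPM in primed cells. The d8 and d16 libraries came from whole cultures on feeders, and the paper proposes that the mEpiSCs in them first differentiated, perhaps toward mesoderm. Which of these cells carried the fibroblast markers was not tested. In such bulk RNA a change in the cells present and a change in RNA per cell cannot be told apart.

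**Figure D1:**
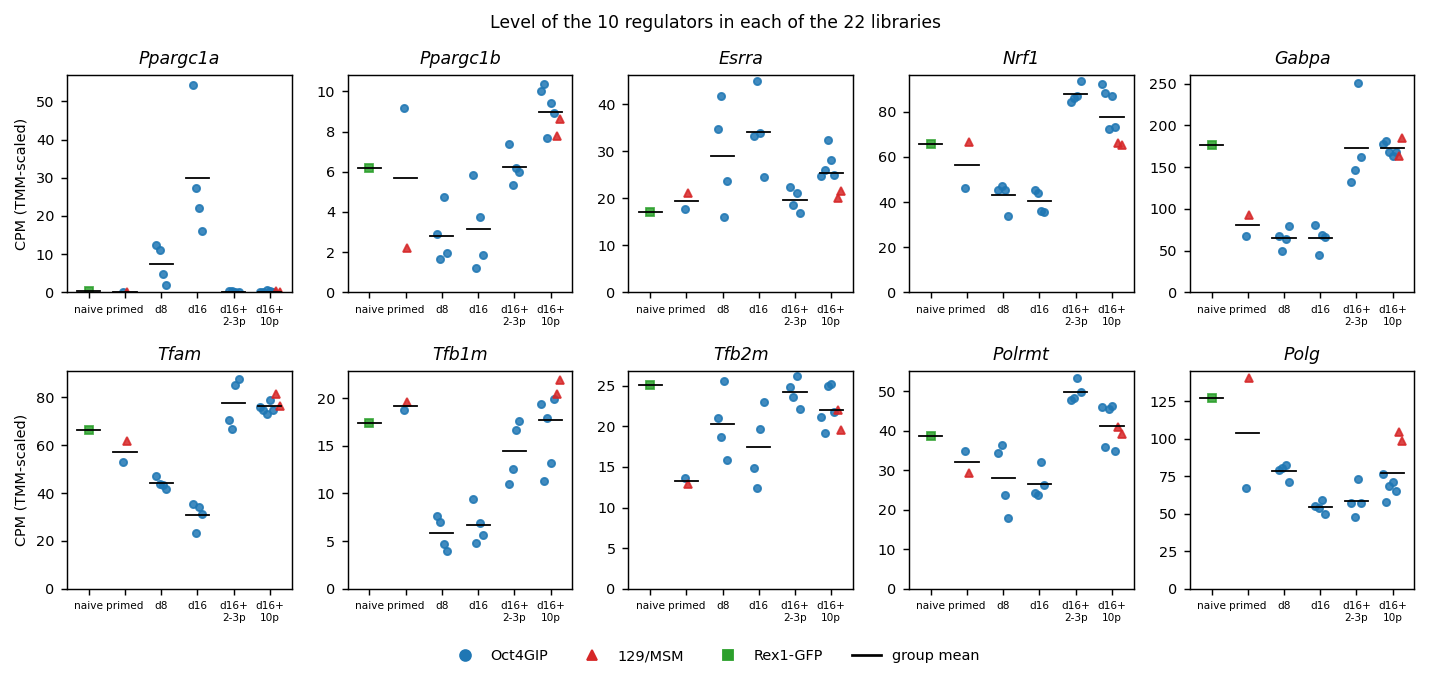
Level of each of the 10 genes in CPM (vertical axes, linear and starting at 0) in the 22 libraries, by group (horizontal axes); points are libraries, coloured and shaped by cell line, and black bars are group means. Ppargc1a lies at or below 0.616 CPM everywhere but in the d8 and d16 cultures, and Tfam is at its lowest at d16 (23.3 to 35.3 CPM).

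Ppargc1a, which encodes the coactivator PGC-1α, was detected almost solely in the whole cultures. It had 0 counts in both primed libraries, which allows up to 1.10 CPM in Oct4GIP and 0.948 CPM in 129/MSM, and 1 count in naive mESCs. The 11 reverted libraries held 0 to 2 counts each, at most 0.616 CPM. At d8 the level was 12.3 CPM in Basal medium, 11.2 in 2iL, 4.73 in AICAR and 1.98 in AICAR+LIF, the last from 1 read. By d16 it stood at 54.3 CPM in Basal medium (288 reads), 27.3 in 2iL, 22.2 in AICAR and 16.2 in AICAR+LIF. Every d16 library lay above every d8 library, and every culture lay above all 14 other libraries. For AICAR+LIF at d8 that place rests on its 1 read, under the floor of 5.93 CPM in that library. Against primed cells the 8 cultures were at least 17.0-fold higher on average (floor of 3 counts in a library), with an adjusted p of 5.31e-05 by edgeR's quasi-likelihood test with Benjamini-Hochberg adjustment. After 2 or 3 passages in 2iL it was at least 26.3-fold lower than at d16 (edgeR adjusted p = 9.35e-08). Between naive, primed and reverted groups no fold is given, since all were at the floor.

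The Ppargc1a gene spans chr5:51454250-51567726 on the minus strand of GRCm38 in GENCODE release M21. Its promoter from RefSeq (GRCm38.p6, chr5:51567676-51567975, 250 bases before to 50 after the start of transcription, written 5′ to 3′ on the gene's strand) is shown because this gene separated the cultures from the other libraries. Capitals mark the reverse of TGACG, the half-site of the cAMP-responsive factor CREB, and the match begins 49 bases before the start. This window does not hold the start of the transcript with most Ppargc1a reads, which is given below.

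Ppargc1a promoter: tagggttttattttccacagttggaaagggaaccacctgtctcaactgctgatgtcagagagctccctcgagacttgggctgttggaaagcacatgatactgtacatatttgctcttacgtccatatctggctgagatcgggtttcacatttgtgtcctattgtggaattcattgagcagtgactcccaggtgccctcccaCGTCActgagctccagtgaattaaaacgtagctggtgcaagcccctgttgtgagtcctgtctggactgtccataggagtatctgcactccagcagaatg

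The half-site was found on either strand in 3 of 10 member promoters (Ppargc1a, Polg and Tfb1m) and in 20.8% of all 32851 promoters of this length, and the full site TGACGTCA, present in 1.79% of them, was not in this window. Of the 544 reads counted on Ppargc1a in all libraries, 370 were assigned to the transcript Ppargc1a-203, whose annotated start at position 51553922 lies inside the gene, and 56 to Ppargc1a-204, which starts at 51567704, inside the promoter window shown. These transcripts share exons, and how reads common to several of them were assigned is not stated.

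Whether AICAR changed Ppargc1a within the cultures was asked with the day as a covariate. Both AICAR libraries lay below both libraries without AICAR on each day, 1.98 and 4.73 against 11.2 and 12.3 CPM at d8 and 16.2 and 22.2 against 27.3 and 54.3 CPM at d16. The difference was -1.24 ± 0.31 (SE) on the log2 scale and passed narrowly (edgeR adjusted p = 0.0416). It did not pass in 12 of 16 alternative analyses, among them every omission of 1 library except the 2iL library at d16. Without both AICAR libraries at d8, the smallest of the series, it was -1.11 (adjusted p = 0.184, edgeR). In that fit 0 of 15090 genes were called. With 1 library left out, 1.69% to 18.5% of all genes were called, the most without 2iL at d16, against 9.60% in the main fit. The effect at d16 minus that at d8 was 0.38 ± 0.70 (SE, edgeR adjusted p = 0.907), a test added after the values were seen. Across days Ppargc1a was 3.97-fold higher at d16 than at d8, by 1.99 ± 0.29 (SE) on the log2 scale (edgeR adjusted p = 0.00743), and higher in 4 of 4 treatments.

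Feeder markers also rose from d8 to d16. At d8 their summed level was 3242 CPM in Basal medium, 3378 in 2iL, 3123 in AICAR and 2690 in AICAR+LIF, so that both the feeder sum and Ppargc1a were lowest in AICAR+LIF and the AICAR cultures lay below the others in both. Their summed level at d16 was 5531 CPM in Basal medium, 16649 in AICAR, 18665 in AICAR+LIF and 49770 in 2iL. At d16 Ppargc1a was highest in Basal medium, where the feeder sum was lowest. Of the 10 feeder markers, 8 were called higher at d16 than at d8 and 2 (Postn and Pdgfrb) were called higher with AICAR, by edgeR at an adjusted p under 0.05. Only 3 of the 10 had a log2 fold change above 0 with AICAR, and the median of the 10 was -0.47. The part of feeder or differentiated cells in the levels of Ppargc1a was not tested.

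**Figure D2:**
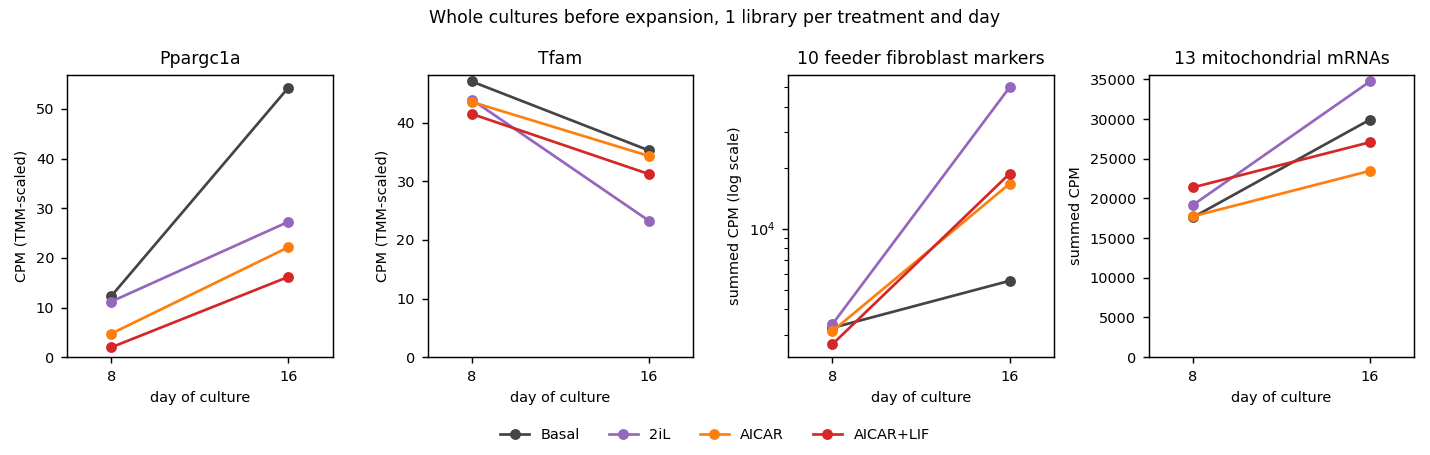
Ppargc1a and Tfam (CPM), the summed CPM of 10 feeder fibroblast markers (log axis) and the summed CPM of 13 mitochondrially encoded mRNAs at day 8 and day 16 (horizontal axes) in the 8 whole cultures; each point is 1 library and lines join the same treatment. Ppargc1a rises in all 4 treatments to between 16.2 and 54.3 CPM, Tfam falls in all 4, and the feeder sum at d16 spans 5531 to 49770 CPM.

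The genes whose log2 CPM followed Ppargc1a most closely over the 22 libraries were Os9 (Pearson r = 0.960), Adamtsl1 (0.951) and Ptprz1 (0.944), among 10843 candidates with a mean log2 CPM of at least 3. Os9 acts in the degradation of misfolded proteins of the endoplasmic reticulum and Ptprz1 is a receptor phosphatase of the nervous system. These correlations describe libraries that fall into cultures and all others, and they carry no test.

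Esrra, at chr19:6910977-6921813 on the minus strand, encodes the orphan receptor ERRα that PGC-1 coactivators bind. Its level was 17.1 CPM in naive mESCs and 17.7 and 21.2 CPM in primed Oct4GIP and 129/MSM cells. The d8 cultures gave 34.7 CPM in Basal medium, 41.9 in 2iL, 16.1 in AICAR and 23.7 in AICAR+LIF. At d16 the values were 33.2, 44.9, 34.0 and 24.5 CPM in the same order. Both libraries with AICAR lay below both without it at d8, but at d16 the ranges overlapped. The AICAR difference of -0.62 ± 0.23 (SE) on the log2 scale did not pass (edgeR adjusted p = 0.114) but did in a fit of all 22 libraries (-0.69, adjusted p = 0.0263, edgeR). Reverted cells had 22.5, 18.6, 21.1 and 16.9 CPM at d16+2p (AICAR, AICAR+LIF) and d16+3p (AICAR, AICAR+LIF), all below the 4 d16 cultures. That fall was 1.72-fold, by 0.78 ± 0.24 (SE) on the log2 scale (edgeR adjusted p = 0.00663), though against the AICAR cultures of d16 alone it was -0.57 and did not pass (adjusted p = 0.0857, edgeR). The d16+10p libraries ranged from 20.01 to 32.3 CPM with a median of 25.0. Esrra thus shared with Ppargc1a its highest mean at d16 (34.2 ± 8.39 CPM, SD, n = 4), but it was expressed in every library. Against primed cells the culture difference of 0.72 ± 0.28 (SE) just missed the threshold (edgeR adjusted p = 0.0504) and passed with DESeq2 (0.81, adjusted p = 0.0146). Its exons share 73 bases (1.66% of the gene) with Trmt112 on the opposite strand.

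Ppargc1b, which encodes the coactivator PGC-1β, was a low-count gene, with 1 to 32 reads in a library. Primed Oct4GIP cells had 9.20 CPM and primed 129/MSM cells 2.21 CPM, from 25 and 7 reads. The cultures ranged from 1.20 to 5.85 CPM, the reverted d16+2p and d16+3p libraries from 5.32 to 7.40, and the d16+10p libraries from 7.70 to 10.4 with a median of 8.93. All 7 libraries at d16+10p lay above all 4 at the earlier passages, but the difference of 0.52 ± 0.36 (SE) on the log2 scale did not pass (edgeR adjusted p = 0.439). Against d16 the d16+2p and d16+3p libraries differed by 0.90 ± 0.42 (SE, edgeR adjusted p = 0.0620), a difference that passed with limma voom (1.02, adjusted p = 0.0361) and without the Basal culture of d16 (1.40, adjusted p = 0.00908, edgeR). Over the 22 libraries Ppargc1a and Ppargc1b had a Pearson r of -0.66, a description of libraries that fall into cultures and all others. Outside the cultures Ppargc1a was at the floor. Among the cultures Basal medium at d16 was highest for both genes (54.3 and 5.85 CPM). The lowest Ppargc1b, 1.20 CPM in 2iL at d16, came with 27.3 CPM of Ppargc1a. Closest to Ppargc1b were Cwc27 (r = 0.884), Fabp3-ps1 (0.873) and Zfp729b (0.867), and closest to Esrra were Pex16 (0.846), Serping1 (0.814) and Hacd3 (0.792).

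Nrf1, at chr6:30047988-30153458 on the plus strand, encodes the factor that binds many promoters of respiratory chain genes. It stood at 65.8 CPM in naive mESCs and at 46.4 CPM in primed Oct4GIP cells and 66.6 CPM in primed 129/MSM cells. The cultures ranged from 33.6 to 47.3 CPM at d8 and from 35.8 to 45.5 CPM at d16. Reverted cells reached 84.4, 86.0, 86.8 and 93.5 CPM at d16+2p and d16+3p, and at d16+10p the lowest, median and highest values were 65.5, 73.3 and 92.4 CPM. No culture reached the level of any reverted library. The rise from d16 to the early passages was 2.17-fold, by 1.12 ± 0.16 (SE) on the log2 scale (edgeR adjusted p = 2.50e-06). Against primed cells the d16+10p libraries were higher by 0.46 ± 0.18 (SE), which only just passed (edgeR adjusted p = 0.0499), overlapped in range, and was lost in 10 of 16 alternatives. It was 0.22 without primed Oct4GIP cells (adjusted p = 0.510) and 0.80 with Oct4GIP libraries alone (adjusted p = 0.0122, both edgeR).

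In the share of Nrf1 reads on the short transcript Nrf1-214 the cultures did not overlap the other libraries, nor did they for the longer Nrf1-211. For the gene total they did (47.3 CPM at most in cultures, 46.4 CPM in primed Oct4GIP cells). Nrf1-214 ends in an exon at chr6:30140216-30140904 of which 633 of 689 bases belong to no other annotated Nrf1 transcript. In the 14 naive, primed and reverted libraries 471 reads were assigned to it, between 11.1% and 21.4% of each library's Nrf1 reads. The 8 cultures held 23 such reads in all, between 0% and 5.88% of each library's Nrf1 reads. The share was 18.4% in naive mESCs, 21.4% and 17.1% in primed Oct4GIP and 129/MSM cells, and 13.3% to 17.3% at d16+2p and d16+3p. It was 3.20% in Basal medium at d8, 3.51% in 2iL, 4.17% in AICAR and 5.88% in AICAR+LIF (1 of 17 reads), and at d16 it was 2.07%, 3.64%, 0% (0 of 115 reads) and 3.16% in the same order. Without these reads Nrf1 was still higher at d16+2p and d16+3p than at d16, at 74.2 ± 2.21 against 39.4 ± 4.87 CPM (SD, n = 4 each), and the ranges did not overlap. Nrf1-211 went the other way, with 15.8% to 29.4% of Nrf1 reads in the cultures against 7.14% to 14.7% in the other libraries. Nrf1-214 was singled out because its share left the widest gap between cultures and other libraries. Its lack of overlap thus follows from the choice, and its share is given as a description, with no test.

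**Figure D3:**
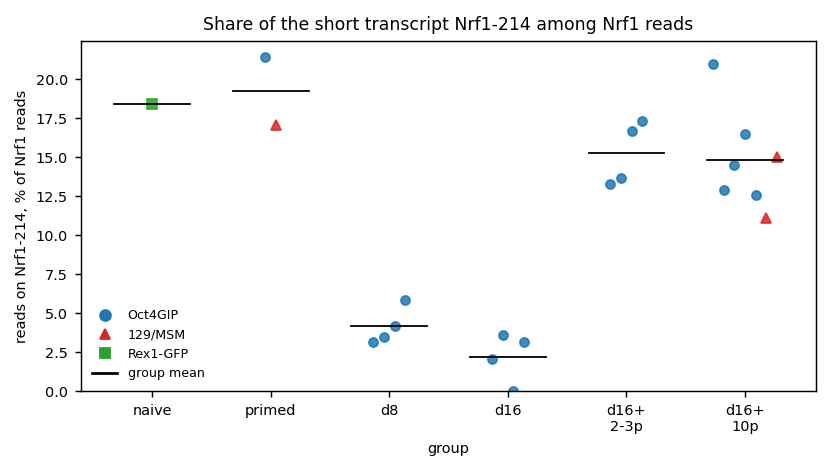
Reads assigned to the transcript Nrf1-214 as a percentage of all Nrf1 reads (vertical axis, from 0) in each library, by group (horizontal axis); points are libraries marked by cell line and bars are group means. The 8 cultures lie between 0% and 5.88%, and the 14 other libraries between 11.1% and 21.4%.

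Gabpa, at chr16:84834925-84863779 on the plus strand, encodes the DNA-binding subunit of GABP and had the largest called difference between primed and d16+10p cells. Primed Oct4GIP cells had 67.7 CPM and primed 129/MSM cells 93.2 CPM, against 177 CPM in naive mESCs. The d16+10p libraries lay between 163 and 185 CPM with a median of 169. The ranges of primed and d16+10p cells were far apart and the naive value fell within the d16+10p range. The rise was 2.14-fold, by 1.10 ± 0.23 (SE) on the log2 scale (edgeR adjusted p = 0.000904), and it passed in 16 of 16 alternatives. The cultures stayed between 45.3 and 80.2 CPM, and the d16+2p and d16+3p libraries had 132, 147, 251 and 162 CPM. That step from d16 was 2.64-fold, by 1.40 ± 0.19 (SE, edgeR adjusted p = 2.50e-06). An exonic stretch of 397 bases, 6.98% of the gene, overlaps Atp5j on the opposite strand, and the strand setting of the counting is not stated.

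Tfam, at chr10:71225464-71238280 on the minus strand, encodes the protein that packages mitochondrial DNA and activates its promoters. The order of its group means was d16+2p and d16+3p (77.7 ± 10.4 CPM, SD, n = 4), d16+10p (76.4 ± 2.80, n = 7), naive (66.4, n = 1), primed (57.3 ± 6.09, n = 2), d8 (44.0 ± 2.29, n = 4) and d16 (31.0 ± 5.45, n = 4). Neighbouring groups in that order did not overlap, apart from the reverted groups, which did. At d16 the level was 35.3 CPM in Basal medium, 23.3 in 2iL, 34.3 in AICAR and 31.2 in AICAR+LIF, and each treatment was lower than at d8. The fall from d8 to d16, by 0.50 ± 0.18 (SE) on the log2 scale, did not pass (edgeR adjusted p = 0.0800). Against primed cells the cultures were 1.54-fold lower, by 0.63 ± 0.15 (SE, edgeR adjusted p = 0.00252), a call lost with Oct4GIP libraries only (-0.49, adjusted p = 0.0760, edgeR). From d16 to the early passages Tfam rose 2.49-fold, by 1.32 ± 0.14 (SE, edgeR adjusted p = 5.73e-08). The d16+10p libraries exceeded the primed ones by 0.41 ± 0.16 (SE, edgeR adjusted p = 0.0432), a call lost in 13 of 16 alternatives, although 7 of 7 libraries lay above both primed ones. Over the 22 libraries Tfam had a Pearson r of -0.88 with Ppargc1a, which was at the floor outside the cultures. The value is a description of libraries that fall into cultures and all others. At d8 both genes fell in the order Basal, 2iL, AICAR and AICAR+LIF (Tfam 47.0, 44.0, 43.6 and 41.5 CPM). From d8 to d16 Ppargc1a rose and Tfam fell in 4 of 4 treatments. Tfam was closest to Mllt10 (r = 0.980), Las1l (0.978) and Cep192 (0.978).

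The promoters of Gabpa, Tfam, Polrmt and Polg are shown together because they were the 4 of 10 member promoters (9 members matched, Nrf1 with 2 promoters) that hold CCGGAAG, the letters that GABP and other ETS factors bind, on either strand. The sequences are from RefSeq on GRCm38.p6, run 5′ to 3′ on each gene's strand from 250 bases before to 50 after the start, and carry the motif or its reverse in capitals. They lie at chr16:84834874-84835173 (plus strand), chr10:71237995-71238294 (minus), chr10:79746532-79746831 (minus) and chr7:79466224-79466523 (minus).

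Gabpa promoter: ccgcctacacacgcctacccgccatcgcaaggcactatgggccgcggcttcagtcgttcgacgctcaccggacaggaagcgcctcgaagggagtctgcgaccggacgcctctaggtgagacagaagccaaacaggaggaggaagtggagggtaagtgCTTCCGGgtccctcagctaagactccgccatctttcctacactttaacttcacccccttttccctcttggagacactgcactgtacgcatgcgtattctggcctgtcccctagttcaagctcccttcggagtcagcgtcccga

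Tfam promoter: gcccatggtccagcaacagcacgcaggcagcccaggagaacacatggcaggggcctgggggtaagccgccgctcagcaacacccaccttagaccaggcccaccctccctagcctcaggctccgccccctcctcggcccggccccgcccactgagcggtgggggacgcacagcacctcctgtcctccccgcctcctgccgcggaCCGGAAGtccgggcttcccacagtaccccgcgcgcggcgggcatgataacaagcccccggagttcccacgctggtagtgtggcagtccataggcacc

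Polrmt promoter: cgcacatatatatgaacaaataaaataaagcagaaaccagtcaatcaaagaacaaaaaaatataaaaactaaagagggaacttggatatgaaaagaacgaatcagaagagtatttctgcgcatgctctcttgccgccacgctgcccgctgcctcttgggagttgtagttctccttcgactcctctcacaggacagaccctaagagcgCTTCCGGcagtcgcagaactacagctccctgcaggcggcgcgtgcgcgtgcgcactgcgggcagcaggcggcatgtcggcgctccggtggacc

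Polg promoter: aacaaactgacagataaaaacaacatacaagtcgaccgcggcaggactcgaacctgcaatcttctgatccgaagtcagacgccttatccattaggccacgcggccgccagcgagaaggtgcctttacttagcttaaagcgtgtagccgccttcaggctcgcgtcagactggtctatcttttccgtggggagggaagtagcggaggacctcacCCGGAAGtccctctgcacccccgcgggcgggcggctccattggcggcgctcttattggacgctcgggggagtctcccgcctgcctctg

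The motif began 93 bases before the start in Gabpa, 47 in Tfam, 43 in Polrmt and 38 in Polg, and was found in 8.86% of all 32851 promoters. Of these 4 genes, Gabpa, Tfam and Polrmt were called higher at d16+2p and d16+3p than at d16, and Polg was not. The NRF1 core GCGCANGC was found in the promoters of Polrmt, Tfb2m and Esrra (9.95% of all promoters), and the ERR half-site AAGGTCA (4.72% of all) in none of the 10. Member promoters had a median GC content of 59.7%, against 52.7% over all. A match marks letters in this window only.

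Tfb1m, at chr17:3519256-3557781 on the minus strand, encodes the methyltransferase of mitochondrial ribosomal RNA. It had 18.8 and 19.6 CPM in primed cells and 17.4 CPM in naive mESCs. The cultures lay far below, at 7.60, 7.05, 4.73 and 3.95 CPM at d8 and 9.43, 4.81, 6.87 and 5.65 CPM at d16 (Basal, 2iL, AICAR, AICAR+LIF), with only 2 reads in AICAR+LIF at d8. The cultures were 2.92-fold lower than primed cells, by 1.55 ± 0.28 (SE) on the log2 scale (edgeR adjusted p = 0.000264), and 8 of 8 lay below both primed libraries. From d16 to the early passages it rose 2.11-fold, by 1.08 ± 0.27 (SE, edgeR adjusted p = 0.00142), to between 10.95 and 17.6 CPM. The d16+10p libraries had 11.4 to 21.9 CPM with a median of 19.4, a range that held the primed and naive values. Tiam2, on the opposite strand, shares 142 exonic bases with it (3.93%).

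Tfb2m, at chr1:179528055-179546267 on the minus strand, encodes the initiation factor of mitochondrial transcription and its lowest group mean was that of primed cells, with 13.6 CPM in Oct4GIP and 12.95 CPM in 129/MSM. Naive mESCs had 25.1 CPM, and the d16+10p libraries 19.1 to 25.2 CPM with a median of 21.7, all above the primed libraries. The difference was 1.65-fold, by 0.73 ± 0.23 (SE) on the log2 scale (edgeR adjusted p = 0.0189), and was lost in 5 of 15 alternatives, among them without either primed library. The cultures spread from 12.4 to 25.6 CPM. From d16 to the early passages the change of 0.47 ± 0.19 (SE, edgeR adjusted p = 0.0364) came with overlapping ranges and was lost in 9 of 14 alternatives, among them the omission of any of the 4 early-passage libraries (adjusted p = 0.0704 to 0.139, edgeR).

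Polrmt, at chr10:79736123-79746581 on the minus strand, encodes the mitochondrial RNA polymerase. The early passages had 47.7, 48.3, 53.4 and 49.9 CPM, above every other library. At d16 the level was 24.3 CPM in Basal medium, 23.7 in 2iL, 32.1 in AICAR and 26.3 in AICAR+LIF, and the rise to the early passages was 1.87-fold, by 0.90 ± 0.18 (SE) on the log2 scale (edgeR adjusted p = 0.000161). Primed cells had 34.9 and 29.4 CPM, naive mESCs 38.8 CPM and d16+10p libraries 34.8 to 46.4 CPM with a median of 40.8. Both AICAR libraries lay below both others at d8 (17.8 and 23.7 against 34.4 and 36.5 CPM) and above both at d16. That reversal, tested after the values were seen, was 0.85 ± 0.35 (SE) on the log2 scale and did not pass (edgeR adjusted p = 0.305). The d8 values with AICAR rest on 9 and 25 reads.

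Polg, at chr7:79446231-79466362 on the minus strand, encodes the catalytic subunit of polymerase γ, and its levels lay apart between the cell lines. In primed cells it had 67.3 CPM in Oct4GIP and 141 CPM in 129/MSM. At d16+10p the pairs of libraries with the same treatment had 76.5 against 105 CPM with AICAR and 57.7 against 98.8 CPM with AICAR+LIF, Oct4GIP first. All 3 libraries of 129/MSM lay above all 18 libraries of Oct4GIP, which reached at most 82.4 CPM, and naive mESCs of the Rex1-GFP line had 127 CPM. Within the 3 pairs the difference was 1.70-fold, 0.77 ± 0.20 (SE) on the log2 scale, and did not pass (edgeR adjusted p = 0.234). Leaving out either primed library ended the primed pair and brought the call, at 0.63 (adjusted p = 0.0470) and 0.62 (adjusted p = 0.0443, edgeR). Both fits thus rested on the reverted pairs. All genes were called more often there too, 10.5% without primed Oct4GIP and 9.9% without primed 129/MSM, against 0.116% over the 3 pairs. Each line was 1 stock of cells, so that line, sex, strain and culture history cannot be told apart. An exonic stretch of 921 bases, 8.57% of Polg, overlaps Fanci on the opposite strand.

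The call on Polg against primed cells rested on the primed 129/MSM library. The cultures, all Oct4GIP, were called 1.59-fold lower than the primed group, by 0.67 ± 0.22 (SE) on the log2 scale (edgeR adjusted p = 0.0222), but against primed Oct4GIP cells alone the difference was -0.02 in a fit of Oct4GIP libraries only (adjusted p = 1, edgeR) and -0.09 in a fit without the primed 129/MSM library (adjusted p = 0.847, edgeR). From d8 to d16 Polg went from 71.2 to 82.4 CPM to 50.1 to 59.0 CPM, lower in 4 of 4 treatments and with no overlap. This change of -0.50 ± 0.15 (SE) missed the threshold (edgeR adjusted p = 0.0516) and passed with limma voom (adjusted p = 0.0396). Nrf1 was lower in 129/MSM than in Oct4GIP cells at d16+10p (66.2 and 65.5 against 92.4 and 88.2 CPM) and higher in the primed pair (66.6 against 46.4 CPM), and the test of that difference, run after the values were seen, did not pass (-0.97 ± 0.28, SE, edgeR adjusted p = 0.0769).

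**Figure D4:**
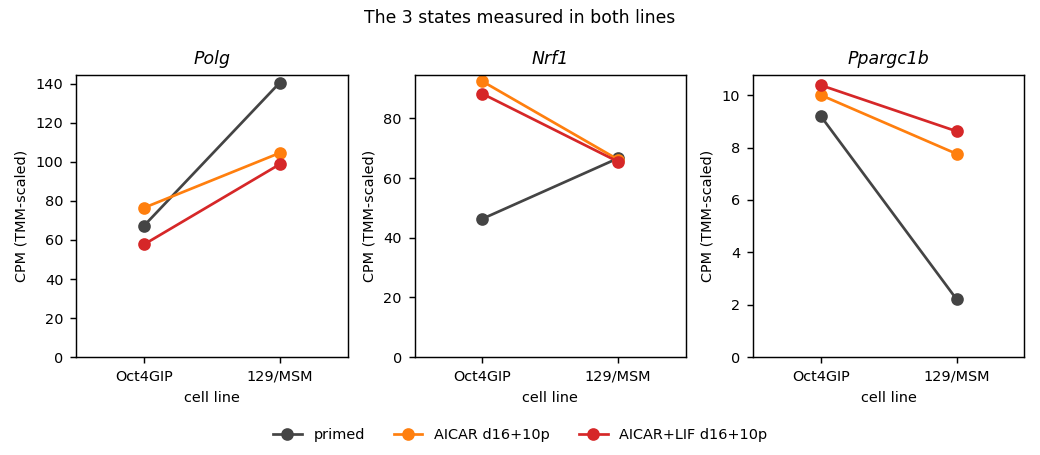
Polg, Nrf1 and Ppargc1b in CPM (vertical axes, from 0) in Oct4GIP and 129/MSM cells for the 3 states measured in both lines (primed, AICAR d16+10p and AICAR+LIF d16+10p); each point is 1 library and lines join the same state. Polg is higher in 129/MSM in all 3 pairs, Ppargc1b is lower in all 3, and Nrf1 changes order between the primed and the reverted pairs.

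Counts of calls over the 10 genes are read here against the share of all tested genes that passed. At d16+10p against primed, 4 of 10 were called higher (Nrf1, Gabpa, Tfam and Tfb2m) and 0 lower, where 36.6% of 18739 tested genes were called, 16.7% higher and 19.9% lower. At d16+2p and d16+3p against d16, 6 were higher and 2 lower (Ppargc1a and Esrra), where 71.1% of all were called, 33.2% higher and 37.9% lower. In the cultures against primed cells 1 was higher and 3 were lower (Tfam, Tfb1m and Polg), where 37.5% were called, 18.1% higher and 19.4% lower. These comparisons share libraries and are not independent of each other. The members were called about as often as all genes in each of them.

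Few or no calls were made in the other comparisons. Between d16+10p and the early passages 0 of 10 were called, where 9.35% of all genes were (4.75% higher and 4.61% lower). There, 1 member (Polg) had an unadjusted p under 0.05 in edgeR, and DESeq2 and limma voom called 0 as well. With AICAR, only Ppargc1a of 9 members tested was called, where 9.60% of 14026 genes were, 3.54% higher and 6.06% lower. From d8 to d16 it was again only Ppargc1a of 9, where 24.2% of genes were called, 14.7% higher and 9.50% lower. Ppargc1b was too low for testing in both. Without TMM scaling, 54.4% of all genes called with AICAR were higher instead of 36.9%, and 48.9% of those called between d8 and d16 instead of 60.8%, while Ppargc1a kept its direction in both.

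With LIF during reversion, over 5 pairs of reverted libraries, 0 of 9 members tested were called and none had an unadjusted p under 0.05, where 0% of 12821 genes were called (0% higher, 0% lower) and 310 had an unadjusted p under 0.05 in edgeR. DESeq2 and limma voom called 0 genes in that comparison too. The fitted differences of the 9 members lay between -0.21 (Polg) and 0.06 (Nrf1) on the log2 scale, with standard errors from 0.09 to 0.22. Between the lines, over 3 pairs, 0 of 9 were called, where 0.116% of 12954 genes were (0.0926% higher and 0.0232% lower). Polg alone of the members had an unadjusted p under 0.05 there (0.00780), and DESeq2 and limma voom called 0 members.

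**Figure D5:**
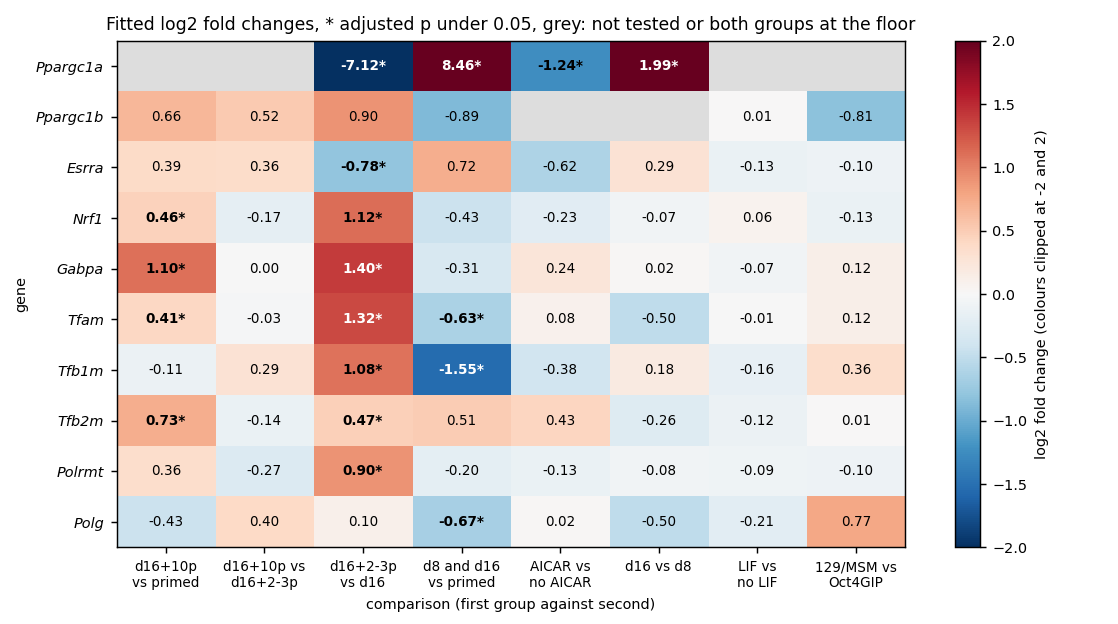
Fitted log2 fold changes of the 10 genes (rows) in the 8 comparisons (columns), from edgeR; colour gives the fold change, clipped at -2 and 2, stars mark an adjusted p under 0.05, grey cells were not tested or had both groups at the floor, and the Ppargc1a values of -7.12 and 8.46, fitted against groups at the floor, give no size. The column of d16+2p and d16+3p against d16 holds 8 stars, and those of LIF, of the line and of d16+10p against the early passages hold 0.

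Different activators could be set side by side only at d16+10p, with 1 Oct4GIP library for each activator with or without LIF and hence no test. With LIF, Gabpa was 181 CPM after AICAR, 164 after A769662 and 169 after metformin, and without LIF it was 178 after AICAR and 168 after A769662. Tfam was 74.6, 78.8 and 74.7 CPM with LIF and 75.9 and 73.0 CPM without it, in the same order. Tfb1m stood at 11.4, 13.2 and 19.95 CPM with LIF (35, 35 and 67 reads) and at 19.4 and 17.9 CPM without it (33 and 58 reads). With LIF, Tfb1m was highest after metformin. Over the 11 reverted libraries Tfam varied least of the 10 genes, with an SD of 7.98% of its mean, and the SD of Polg was 24.9% of its mean. The naive library fell within the d16+10p range for 6 members, below it for 3 (Ppargc1b, Esrra and Tfam) and above it for 1 (Polg).

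Other genes of the pathway were taken from lists. Among 15 tested other regulators, the early passages against d16 had 8 higher and 5 lower, with a median log2 fold change of 0.39 against -0.15 over all genes. Of all genes, 33.2% were higher and 37.9% lower there. Sirt1, the deacetylase that acts on PGC-1α, and Pprc1, the gene of the PGC-1-related coactivator PRC, rose most, by 3.07 ± 0.23 and 2.44 ± 0.25 (SE) on the log2 scale, and Esrrg and Ppara fell most, from means of 13.2 and 2.78 CPM at d16 to at most 2 counts in a library. Pprc1 and Sirt1 were also the most raised of the list at d16+10p against primed, by 1.33 ± 0.29 and 1.18 ± 0.26 (SE), with Myc and Rxra the most lowered of 5 higher and 3 lower genes (edgeR adjusted p from 0.000422 to 0.00119 for these 4). In that comparison 16.7% of all genes were higher and 19.9% lower. Esrrg, a relative of Esrra, was higher in the cultures (mean 14.8 CPM) than in primed cells, where it had 2 and 4 counts (edgeR adjusted p = 0.00709), and was highest in Basal medium on both days (46.7 CPM at d8 and 28.7 CPM at d16). Gabpb1, the partner subunit of Gabpa, was lower with AICAR by 0.59 ± 0.15 (SE, edgeR adjusted p = 0.0416) and at d16 against d8 by 1.35 ± 0.17 (SE, edgeR adjusted p = 0.00503).

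Most genes of the mitochondrial RNA machinery were higher at the early passages. Of 20 genes of mitochondrial transcription and RNA processing, 15 were higher and 1 lower (Hsd17b10) than at d16. Their median log2 fold change was 1.48 against -0.15 over all genes, of which 33.2% were higher and 37.9% lower. Fastkd5 and Tbrg4 rose most, by 2.15 ± 0.27 and 2.04 ± 0.30 (SE). At d16+10p against primed 7 of the 20 were higher and 0 lower (median 0.54 against -0.01 over all genes, of which 16.7% were higher and 19.9% lower). They were led by Elac2, which trims transfer RNAs, and Lrpprc, which stabilises mitochondrial mRNA. In the cultures against primed cells 8 of the 20 were lower and 0 higher, led by Pnpt1 and Tefm. The median was -0.41 against 0.04 over all genes, of which 18.1% were higher and 19.4% lower. Of 15 genes of mitochondrial DNA replication, 8 were higher and 2 lower at the early passages than at d16, with a median log2 fold change of 0.46 against -0.15 over all genes, where 33.2% of all genes were higher and 37.9% lower. Dna2 and Mgme1 were highest and Top1mt and Dguok lowest. Against primed cells, 4 were higher and 3 lower at d16+10p (median -0.07 against -0.01, where 36.6% of all genes were called), and 0 were higher and 6 lower in the cultures (median -0.51 against 0.04, where 37.5% were called).

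The mRNAs encoded by mitochondrial DNA did not follow these genes. Their summed level was 16323 and 20333 CPM in primed cells and 19576 CPM in naive mESCs. It reached 23484 to 34764 CPM at d16, the group with the lowest Tfam, against 17620 to 21396 CPM at d8. Of the 13 mRNAs, 6 were higher at d16 than at d8 and 0 lower (median log2 fold change 0.67 against 0.01 over all genes, of which 14.7% were higher and 9.50% lower). At d16+2p and d16+3p against d16, 7 were lower and 0 higher (median -0.41 against -0.15 over all genes, of which 33.2% were higher and 37.9% lower). The lowest were mt-Nd5 and mt-Co1 at -0.73 ± 0.16 and -0.62 ± 0.23 (SE, edgeR adjusted p = 0.000440 and 0.0214). At d16+10p against primed 2 were higher (mt-Nd1 and mt-Nd3) and 0 lower, where 16.7% of all genes were higher and 19.9% lower. Libraries were made from polyadenylated RNA, and mitochondrial mRNAs carry short tails, so these levels compare libraries and not genomes.

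Nuclear targets of these factors were mixed. Of 19 textbook targets of PGC-1, ERR, NRF1 and GABP, 8 were higher and 0 lower at d16+10p than in primed cells. Their median log2 fold change was 0.59 against -0.01 over all genes, of which 16.7% were higher and 19.9% lower. Atp5g1, a subunit of ATP synthase, rose by 1.55 ± 0.20 and Sod2, the mitochondrial superoxide dismutase, by 1.42 ± 0.24 (SE, edgeR adjusted p = 5.17e-06 and 0.000101). At d16+2p and d16+3p against d16, 10 of the 19 were higher and 4 lower, where 33.2% of all genes were higher and 37.9% lower. Among the 4 were Ucp2, lower by 1.56 ± 0.23, and Cpt1b, lower by 1.73 ± 0.59 (SE). From d8 to d16, 7 were higher and 1 lower of 18 tested (median 0.49 against 0.01), where 14.7% of all genes were higher and 9.50% lower, led by Acadm, an enzyme of fatty acid oxidation, by 1.43 ± 0.33 (SE, edgeR adjusted p = 0.0245), and by Ucp2. In the cultures against primed cells 0 were higher and 5 lower (Tomm70a and Tomm20 most), where 18.1% of all genes were higher and 19.4% lower. With AICAR only Tomm70a was called, higher by 0.74 ± 0.13 (SE, edgeR adjusted p = 0.0150), where 3.54% of all genes were higher and 6.06% lower. Between the lines and with LIF, 0 genes of these 5 lists were called in either direction by edgeR.

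From the early passages to d16+10p, where 9.35% of all genes were called, 3 other regulators were lower, Myc and Sirt1 most, by 1.88 ± 0.41 and 0.64 ± 0.18 (SE) on the log2 scale (edgeR adjusted p = 0.00567 and 0.0271), and 0 were higher of 15. Of the RNA processing genes 3 of 20 were lower, among them Fastkd2 and Fastkd5, and 0 higher. The replication list had 1 lower (Exog) and 0 higher of 15, the targets 1 higher (Ucp2) and 0 lower of 19, and the mitochondrial mRNAs 1 lower (mt-Nd2) and 0 higher of 13. With AICAR in the cultures, 0 genes of the RNA processing, replication and mitochondrial mRNA lists were called by edgeR, where 9.60% of all genes were. From d8 to d16, 1 other regulator was higher (Myc) and 5 lower of 14, 2 replication genes were lower (Dna2 and Ssbp1) of 15, and of 19 RNA processing genes 1 was higher (Hsd17b10) and 1 lower (Tbrg4). Between those days 14.7% of all genes were higher and 9.50% lower.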

How the data were processed

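RNA from 22 libraries was sequenced with stranded, poly(A)-selected preparation and single reads. The deposited values are raw read counts per transcript and gene, which the authors made by aligning reads with Bowtie2 2.2.5 to Ensembl transcripts of GRCm38. By the study's methods, alignment used Bowtie2's very-sensitive-local mode, and reads with a mapping quality (MAPQ) of at least 1 were counted. How reads shared by several transcripts were divided and the strand setting of the counting are not given in the sources used here. Libraries were grouped by the labels into naive, primed, d8, d16, d16+2p and d16+3p, and d16+10p. Gene counts were tested with edgeR 4.0.16 in R 4.3.3 (TMM scaling, filterByExpr, quasi-likelihood F test, Benjamini-Hochberg adjustment over all genes tested, call at 0.05). The standard error (SE) is the log2 fold change divided by the square root of F. Comparisons among groups used 1 fit of 22 libraries (18739 genes). AICAR, day, LIF and line were fitted on the libraries concerned, with day, treatment or pair as covariates. Alternatives were DESeq2 1.42.0, limma voom 3.58.1, no TMM, no filter, at least 10 counts in every library, omission of each library, and subsets of libraries. Leaving out both AICAR libraries at d8 was added after the data were seen. The 10 genes and the other lists were chosen with earlier results of these data known. From each other list and comparison, up to 2 called genes per direction with the largest log2 fold change could be named, and for 4 of the 10 genes the 3 genes with the highest Pearson r of log2 CPM. Python 3.11.15 was used for sequences and figures.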

Additional observations from a re-analysis of the deposited data

Results flagged for a closer look

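A single value stood apart within its group. Nrf1 was 33.6 CPM in AICAR+LIF at d8, from 17 counts, while the other 3 cultures of d8 lay between 45.2 and 47.3 CPM. The gap to the nearest was 0.851 of the group's range, above Dixon's critical value for 4 libraries. This was the only flag among 38 groups of 4 to 7 libraries examined, and chance flags about 1 in 20. The library had the lowest total of the series, 438771 counts, and the part of depth in the value was not tested.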

How the results depend on the processing

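Of the calls on single members, 222 repeats under an alternative kept direction and call and 54 lost the call. Members not called kept direction and side of the threshold in 807 repeats, passed in 27 and changed sign in 65, none of which passed. Gabpa, Nrf1, Tfam, Tfb1m, Polrmt and Ppargc1a kept their calls between d16 and the early passages in every alternative in which they were tested. At d16+10p against primed, 4 members were called, but 1 without TMM, 1 without the filter and 1 with 10 counts in every library, where Tfb2m was not tested. With 1 d16+10p library left out, 2 to 3 were called. Of all genes 36.1%, 18.4%, 38.7% and 34.1% to 36.2% were called in these settings, in that order, against 36.6% in the main fit. With Oct4GIP libraries only, which leaves 1 primed library, the differences were 0.80 (Nrf1), 1.32 (Gabpa), 0.48 (Tfam) and 0.69 (Tfb2m). Without primed Oct4GIP, Nrf1, Tfam and Tfb2m lost their calls and Ppargc1b (2.00, edgeR adjusted p = 0.0294) and Polg (-0.86, edgeR adjusted p = 0.0119) gained one. At the early passages against d16, 4 instead of 8 were called with 10 counts in every library, where 5 were tested. With 1 library left out, 7 to 8 were called. Of all genes 74.7% and 67.6% to 69.5% were called there, against 71.1% in the main fit. With AICAR, 0 instead of 1 were called by limma voom, without TMM and with 10 counts in every library, where Ppargc1a was not tested. The same held without the day term and without both AICAR libraries at d8. With 1 library left out, 0 to 1 were called. Of all genes 10.2%, 10.2%, 9.45%, 0.264%, 0% and 1.69% to 18.5% were called in these settings, in that order, against 9.6% in the main fit. From d8 to d16, 2 instead of 1 were called by limma voom, without TMM, without the treatment term and with AICAR in place of the treatments (Polg was gained). With 10 counts in every library, where Ppargc1a was not tested, 0 were called. Of all genes 30.5%, 25.2%, 18.5%, 31.2% and 26.5% were called in these settings, in that order, against 24.2% in the main fit. Between the lines 0 to 1 were called with 1 library left out, where 0.0215% to 10.5% of all genes were called. The causes of these changes were not tested beyond the members tested.

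Signs changed for 20 differences that were not called, up to 0.89 in size (log2 scale). At d16+10p against primed, Ppargc1b was -0.017 with Oct4GIP only. Against the early passages, Gabpa was 0.043 by limma voom and 0.038 without TMM, Tfam was 0.017 without TMM, and with Oct4GIP AICAR and AICAR+LIF only Nrf1 was 0.038 and Gabpa 0.051. Polg at the early passages against d16 was -0.074 with 10 counts in every library. With AICAR, Polg was -0.0078 without the filter, -0.05005 with 10 counts in every library, -0.032 in the fit of 22 libraries and -0.024 without both AICAR libraries at d8, where Polrmt was 0.26. From d8 to d16, Gabpa was -0.12 without TMM, and Nrf1 was 0.025 with 10 counts in every library and 0.016 without both AICAR libraries at d8. With LIF, Ppargc1b was -0.0026 by DESeq2, -0.0062 without TMM and -0.033 in Oct4GIP pairs, where Tfam was 0.0086. Between the lines Gabpa was -0.0406 in the 2 reverted pairs.

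With 1 library left out, Ppargc1b ranged from -0.043 to 2.00 and Polg from -0.86 to 0.19 at d16+10p against primed, and Ppargc1b from -1.64 to 0.45 in the cultures against primed. Gabpa ranged from -0.11 to 0.23 and Tfam from -0.089 to 0.036 at d16+10p against the early passages, and Polg from -0.093 to 0.14 at those against d16. With AICAR the ranges were -0.0204 to 0.085 (Polg) and -0.043 to 0.20 (Tfam), and from d8 to d16 they were -0.12 to 0.14 (Gabpa), -0.24 to 0.073 (Polrmt) and -0.15 to 0.042 (Nrf1). With LIF they were -0.045 to 0.012 (Tfam), -0.13 to 0.077 (Gabpa) and -0.081 to 0.12 (Ppargc1b), and between the lines -0.041 to 0.25 (Gabpa), -0.28 to 0.0036 (Esrra), -0.45 to 0.051 (Nrf1) and -0.014 to 0.057 (Tfb2m). Groups share no replicate numbers in the labels, and the fits without the pairs matched by treatment called 0 members for LIF and 0 for the line, as with them. In AICAR+LIF at d8, Ppargc1a, Ppargc1b and Tfb1m had 1, 1 and 2 reads, under the floor of 3 counts.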
